A study of Mus musculus with 6 samples.

Results

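The genes described here encode the enzymes that build triglycerides and phospholipids from glycerol phosphate, together with the lipases that break down stored triglyceride and a coat protein of the droplets that hold it. They were taken as a fixed list of 33 gene symbols covering acyl transfer, phosphatidate use, head-group synthesis and lipolysis, and all 33 were found among the 49377 symbols of the deposited table. RNA was from epidermis of C57BL/6 mice taken at E19.5, late in gestation, and 3 libraries are labelled control (261, 262 and 264) and 3 Rictor -/- (263, 265 and 266, titled ricEKO). The protein of Rictor is a core part of mTOR complex 2, which phosphorylates AKT, a kinase of the insulin pathway, and the comparison asks which transcripts change in epidermis under the Rictor -/- label. The labels give no further genotype for the controls and no treatment, and the sources used here do not name the promoter or Cre behind the deletion.

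Glycerolipid synthesis starts when an acyl chain is joined to glycerol phosphate by a GPAT enzyme, and an AGPAT enzyme adds the next chain to give phosphatidate. Lipins remove the phosphate to give diacylglycerol, from which DGAT enzymes make triglyceride and choline or ethanolamine transferases make the main membrane phospholipids, while CDS enzymes turn phosphatidate into the precursor of inositol lipids and cardiolipin. In epidermis these lipids supply membranes, lipid droplets and the acyl chains of the water barrier, and loss of Dgat2 is known to impair that barrier in newborn mice.

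The values are FPKM, fragment counts scaled to transcript length and to the mapped fragments of the library, so levels of different genes can be compared. The sum over all genes lay between 609375 and 672925 FPKM, and depth in reads is unknown. Control libraries had 5.63, 6.02 and 4.37 FPKM of Rictor, and those labelled knockout had 6.83, 7.04 and 6.86 FPKM. The difference of 0.33 ± 0.11 (SE) on the log2 scale missed the threshold (limma adjusted p = 0.0694). It was thus not lower under the knockout label, and since a value over the whole gene can hold reads from outside a deleted stretch, it does not check the labels. All differences below are knockout-labelled minus control on the log2(FPKM + 1) scale ± SE, with 3 libraries per group and two-sided limma p-values adjusted over 13500 genes. The labels do not say that the libraries came from separate animals, so each p-value reflects the spread among these libraries, which may be technical. Among tested genes, the deviations of control 264 ran against exonic length (Spearman's rho -0.359, a description across genes) and those of the 3 knockout-labelled libraries ran with it (0.173, 0.191 and 0.263), so values without control 264 and with a length and GC adjustment are given where they change a call. Epidermal keratinocyte markers summed to 33558 to 35364 FPKM in controls and 36170 to 37190 FPKM in knockout-labelled libraries. Within that sum the means of Krt14 (2582 to 5949 FPKM) and Krt5 (3515 to 5212 FPKM) were higher under the knockout label. Those of Krt10 (12917 to 11427 FPKM), Lor and Flg were lower, and that of Krt1 was level.

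Of the 33 genes, 30 averaged at least 1 FPKM in both groups and were tested, and 11 fell and 1 rose in the knockout-labelled libraries. That is 36.7% lower and 3.33% higher, beside 15.6% lower, 7.91% higher and 23.5% in either direction among all 13500 genes tested. The list was chosen with earlier results of these data known, so the comparison is not independent of them. The median difference of the 30 genes was -0.18, against -0.06 for all tested genes, and 0 of the 30 reached a difference of 1. The genes that fell included the acyltransferases Gpam, Agpat3 and Agpat5 and the phosphatidate and diacylglycerol enzymes Lpin3, Dgat2 and Cds1. The others were the head-group enzymes Chkb and Pcyt1a, and Plin3, Pnpla2 and Mgll of lipid storage and breakdown. Lpin2 was the gene that rose. In 13 of the 30 genes every knockout-labelled library lay below every control, and in 4 above, where 29.2% and 16.6% of all tested genes did so. In whole-tissue RNA, fewer cells of a type and less RNA per cell cannot be told apart. Leaving out 1 library at a time gave 4 to 12 lower and 0 to 3 higher genes, with the fewest without knockout-labelled 266 (4 and 0) and 5 and 0 without control 261. Without 263 the counts were 6 and 0, without 265 they were 7 and 0, without control 262 they were 7 and 1, and without control 264 they were 12 and 3. With no filter on low values 2 fell (Agpat3 and Plin3) and 1 rose (Lpin2), and every other call named above was lost. Median, trimmed mean and quantile scaling each gave 8 lower and 3 higher, and over all genes they raised the share of higher calls from 33.7% to 44.8%, 44.2% and 47.9%.

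**Figure D1:**
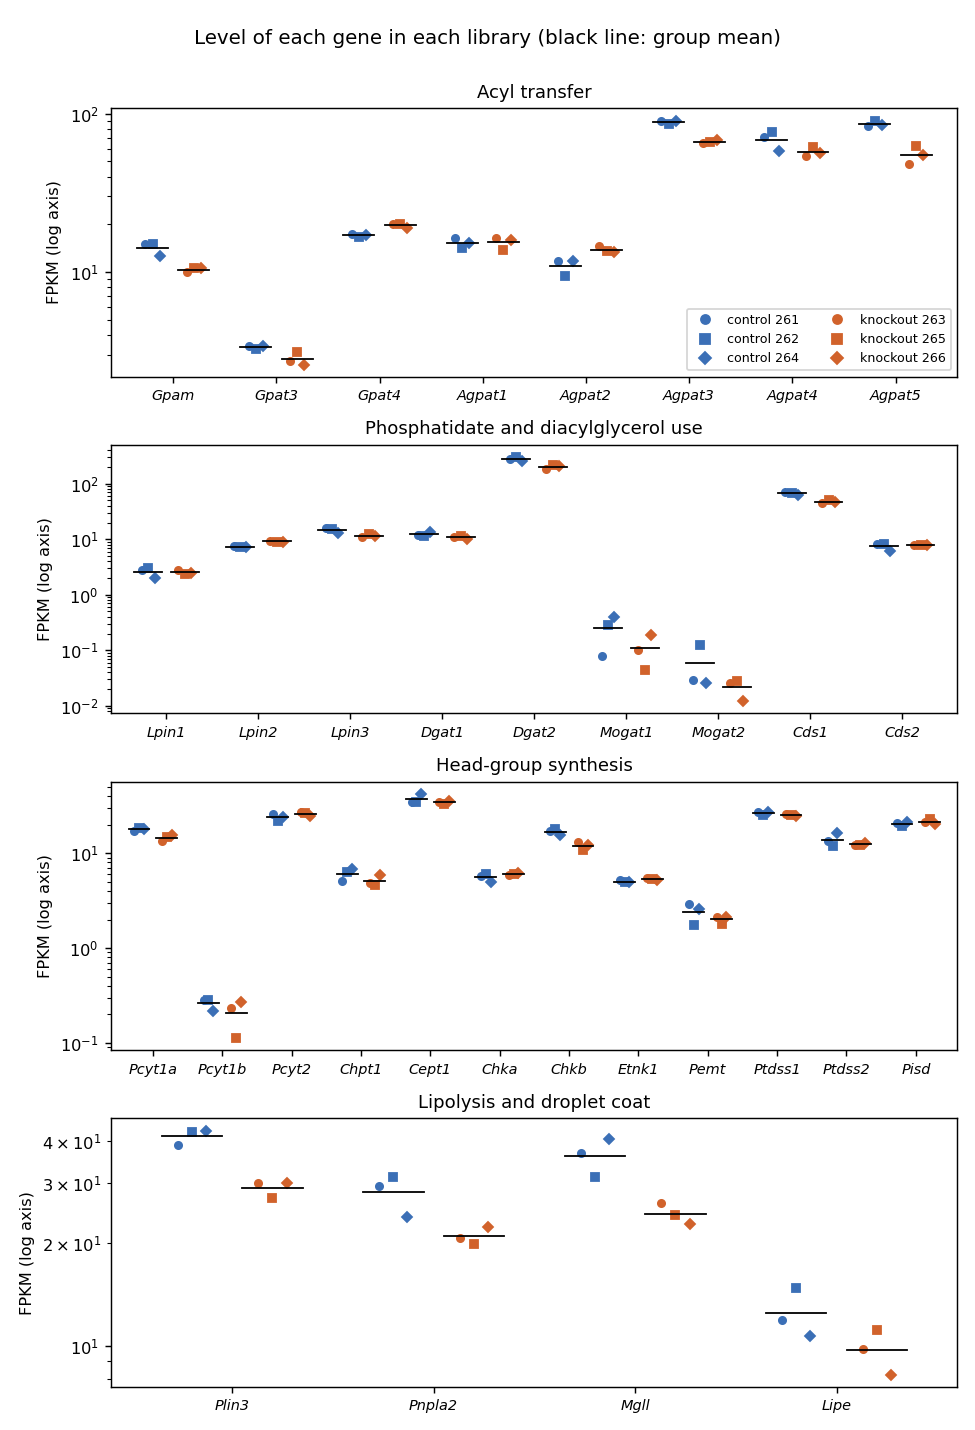
Level of the 33 genes in each library, in FPKM on a log axis, by step of the pathway. Blue points are the 3 control libraries, orange points the 3 knockout-labelled libraries and black lines the group means. Dgat2 is the most abundant at 181 to 300.1 FPKM, and Mogat1, Mogat2 and Pcyt1b lie below 1 FPKM in every library.

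**Figure D2:**
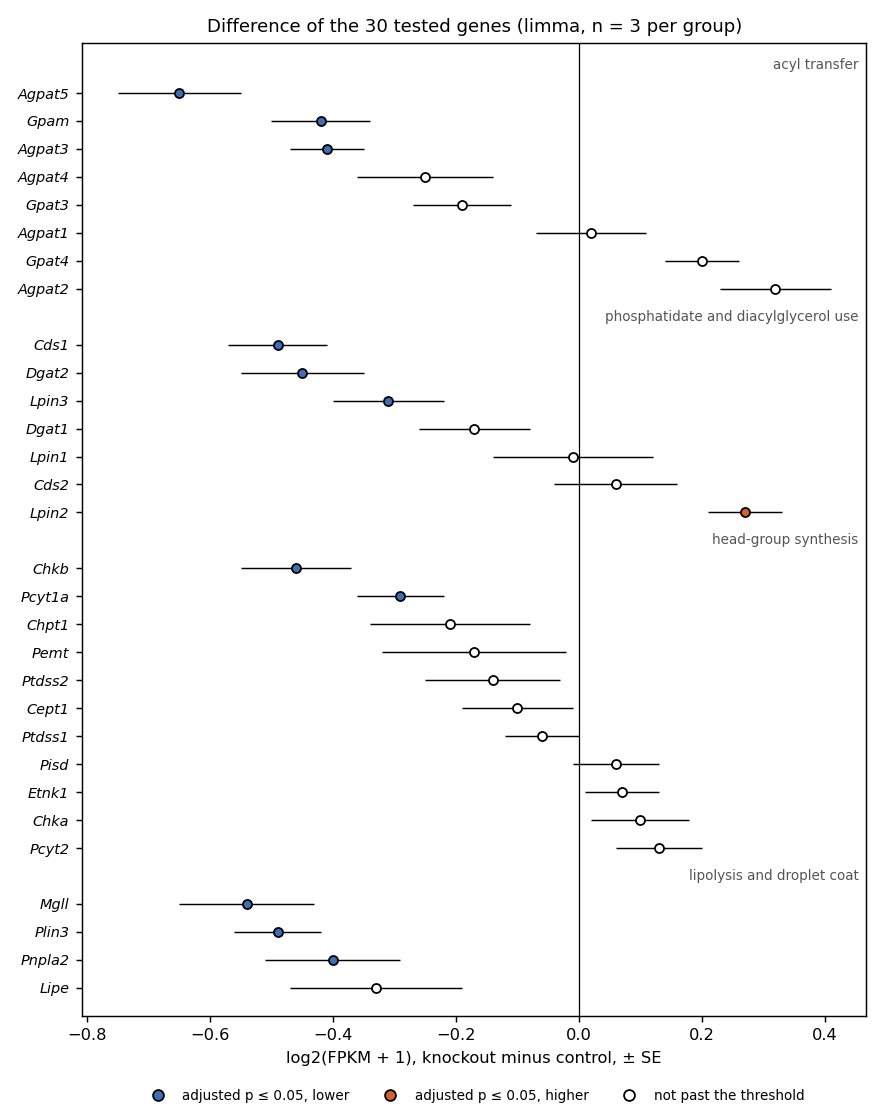
Difference of the 30 tested genes, knockout-labelled minus control on the log2(FPKM + 1) scale, with bars of 1 SE from limma. Filled points passed an adjusted p of 0.05. The 11 blue points lie between -0.65 and -0.29, and the orange point is Lpin2 at 0.27.

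Levels spanned a wide range. In control means 5 genes stood at 50 FPKM or more, 17 from 10 to under 50, 8 from 1 to under 10 and 3 below 1. Dgat2 alone held 24.0% to 29.5% of the summed FPKM of the 33 genes in each library. The 11 genes that fell tended to be the more abundant ones, with control means of 14.2 to 279 FPKM (median 36.1), while the 18 tested genes that did not pass had control means of 2.42 to 68.6 FPKM (median 12.4). Their median exonic length was 3939 bases for those that fell and 4988 bases for those that did not pass, against 4034 bases for all tested genes. The log2(FPKM + 1) scale understates changes of low genes, so abundance can bear on which genes pass. With a pseudocount of 0.1 the same 11 genes fell.

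Start-site windows from RefSeq on GRCm38.p6, 250 bases before to 50 after the start, were matched by symbol for 26 of the 33 genes, using the most upstream window of each gene. They are shown for 3 genes that fell and whose windows share the letters TCACNCCA, a form of the sterol regulatory element, and for Lpin2 and Lpin3, a pair of lipins that moved in opposite directions. Capitals mark matches on either strand to TCACNCCA, to the E-box CACGTG, to the CCAAT box CCAAT or to the GC box GGGCGG. The windows are chr19:55127189-55127488 on the minus strand for Gpam, chr16:32430671-32430970 on the plus strand for Pcyt1a, chr17:56290462-56290761 on the minus strand for Plin3, chr17:71183282-71183581 on the plus strand for Lpin2 and chr2:160880420-160880719 on the plus strand for Lpin3, each read 5′ to 3′ on the strand of its gene.
Gpam: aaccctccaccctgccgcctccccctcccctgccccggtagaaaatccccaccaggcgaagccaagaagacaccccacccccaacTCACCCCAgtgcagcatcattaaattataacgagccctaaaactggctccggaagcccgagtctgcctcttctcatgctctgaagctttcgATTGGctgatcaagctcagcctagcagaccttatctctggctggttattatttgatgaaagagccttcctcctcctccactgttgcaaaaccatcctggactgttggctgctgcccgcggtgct
Pcyt1a: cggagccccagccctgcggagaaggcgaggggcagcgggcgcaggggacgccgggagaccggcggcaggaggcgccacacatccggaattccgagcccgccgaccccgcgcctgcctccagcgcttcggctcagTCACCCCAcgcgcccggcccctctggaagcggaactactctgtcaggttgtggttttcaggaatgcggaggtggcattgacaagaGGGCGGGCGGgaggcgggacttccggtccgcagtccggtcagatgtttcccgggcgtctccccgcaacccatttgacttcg
Plin3: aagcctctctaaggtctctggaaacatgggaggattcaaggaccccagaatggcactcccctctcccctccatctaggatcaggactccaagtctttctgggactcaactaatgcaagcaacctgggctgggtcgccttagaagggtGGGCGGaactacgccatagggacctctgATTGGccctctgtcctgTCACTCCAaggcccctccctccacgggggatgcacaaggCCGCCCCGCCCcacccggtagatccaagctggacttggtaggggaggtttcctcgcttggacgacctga
Lpin2: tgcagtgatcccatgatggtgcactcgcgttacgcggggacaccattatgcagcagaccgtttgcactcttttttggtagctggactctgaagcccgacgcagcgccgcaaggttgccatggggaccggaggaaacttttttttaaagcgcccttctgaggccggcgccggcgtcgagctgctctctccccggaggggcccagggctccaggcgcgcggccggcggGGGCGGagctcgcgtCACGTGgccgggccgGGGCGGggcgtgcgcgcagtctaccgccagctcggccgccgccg
Lpin3: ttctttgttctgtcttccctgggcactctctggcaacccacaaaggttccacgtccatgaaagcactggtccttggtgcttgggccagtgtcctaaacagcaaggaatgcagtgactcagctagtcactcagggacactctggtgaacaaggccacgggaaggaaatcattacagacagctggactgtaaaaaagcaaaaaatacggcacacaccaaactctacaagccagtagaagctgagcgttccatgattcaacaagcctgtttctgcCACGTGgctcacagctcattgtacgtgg

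TCACNCCA occurred in 3 of the 26 windows (11.5%), those of Gpam, Pcyt1a and Plin3, beginning 165, 116 and 58 bases before the start site, and in 4.30% of the windows of all 27025 symbols. The E-box occurred in 4 windows (15.4%, against 7.24% of all), those of Lpin2, Lpin3, Mgll and Lipe, so the lipin that rose and the lipin that fell both hold it. In the window of Gpam the reverse of a CCAAT box begins 74 bases before the start site and in that of Plin3 75 bases before it. CCAAT was found in 12 windows (46.2%, against 38.0% of all) and the GC box in 17 (65.4%, against 35.9%). GTAAACA, the core bound by forkhead factors such as FoxO, was found in 1 window (3.85%, against 3.52% of all), that of Mgll. A match describes letters in these windows, and binding was not measured.

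Acyl transfer held the largest fall of any of the 30 tested genes, that of Agpat5. Of 8 tested genes 3 fell (37.5%, beside 15.6% of all tested genes) and 0 rose, with a median of -0.22. The step summed to 292 to 312 FPKM in controls and 230 to 251 FPKM in knockout-labelled libraries. Agpat5 (ENSMUSG00000031467, chromosome 8, 18846277 to 18891361), an acyltransferase linked to mitochondria and endoplasmic reticulum, had 83.2, 90.5 and 84.9 FPKM in controls 261, 262 and 264, against 48.0, 62.2 and 54.9 FPKM in 263, 265 and 266. All knockout-labelled values lay below all controls, and the mean fell by 36.2% (log2 -0.65 ± 0.10, limma adjusted p = 0.00757). Agpat3 (ENSMUSG00000001211, chromosome 10, 78269178 to 78352489), which adds acyl chains to lysophosphatidate in the endoplasmic reticulum and Golgi, was at 89.5, 86.2 and 89.6 FPKM in controls and 64.9, 65.8 and 68.1 FPKM in knockout-labelled libraries. Its libraries were tight within each group, and the mean fell by 25.1% (log2 -0.41 ± 0.06, limma adjusted p = 0.00551).

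Gpam (ENSMUSG00000024978, chromosome 19, 55067268 to 55127238), the mitochondrial GPAT and a known target of the lipogenic factor SREBP, was at 15.04, 15.12 and 12.5 FPKM in controls and 9.97, 10.5 and 10.5 FPKM in knockout-labelled libraries. Control 264 was the lowest control but still above all 3, and the difference was -0.42 ± 0.08 (limma adjusted p = 0.0160). Gpat4 (0.20 ± 0.06, limma adjusted p = 0.0528), the main GPAT of the endoplasmic reticulum, went the other way without passing, at 17.3, 16.6 and 17.2 FPKM against 20.0, 20.1 and 18.8 FPKM. Agpat2 (0.32 ± 0.09, limma adjusted p = 0.0509), the AGPAT whose loss causes lipodystrophy, was at 11.6, 9.46 and 11.7 FPKM against 14.6, 13.7 and 13.3 FPKM. Neither overlapped between groups, and both passed as higher under median, trimmed mean and quantile scaling (adjusted p = 0.0262, 0.0260 and 0.0252 for Gpat4 and 0.0298, 0.0250 and 0.0281 for Agpat2) and without control 264 (0.0442 and 0.0396). Agpat2 passed also after the length and GC adjustment (log2 0.37, limma adjusted p = 0.0179), and it overlaps Egfl7 on the opposite strand, which was listed at 2.38 to 4.23 FPKM. Agpat4 (-0.25 ± 0.11), another AGPAT, ranged from 57.9 to 76.5 FPKM in controls and from 53.8 to 61.8 FPKM in knockout-labelled libraries, which overlap through control 264, and it passed without that library (log2 -0.37, limma adjusted p = 0.0201). Gpat3 (-0.19 ± 0.08) and Agpat1 (0.02 ± 0.09), further enzymes of the same reactions, did not pass. The call of Gpam was lost without control 261 and without 263 or 266 (limma adjusted p = 0.0555, 0.0638 and 0.0542) and without a filter (0.0977). Agpat3 passed in all 19 alternatives and Agpat5 in all except the fit without a filter (0.0690). The alternative with a threshold of 0.10 keeps every call by design.

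Phosphatidate and diacylglycerol enzymes split between falls and a rise. Of 7 tested genes, with a median of -0.17, 3 fell (42.9%) and 1 rose (14.3%), beside 15.6% and 7.91% of all tested genes. Dgat2 (ENSMUSG00000030747, chromosome 7, 99153658 to 99182719), the droplet-associated enzyme of triglyceride synthesis, was at 280, 300.1 and 256 FPKM in controls and 181, 219 and 212 FPKM in knockout-labelled libraries. The groups did not overlap, the mean fell by 26.9%, and the difference was -0.45 ± 0.10 (limma adjusted p = 0.0222). Its mean of 279 ± 22.1 FPKM (SD, n = 3) in controls put it at the 98.04th percentile of tested genes. Dgat1, the other enzyme that makes triglyceride from diacylglycerol, stood far lower at 11.4 to 13.7 FPKM in controls and 10.02 to 11.4 FPKM in knockout-labelled libraries (-0.17 ± 0.09, limma adjusted p = 0.193). Mogat1 and Mogat2, which acylate monoacylglycerol, were listed at no more than 0.403 and 0.123 FPKM and were not tested. The spans of Mogat2 and Dgat2 lie 36365 bases apart on chromosome 7, so neighbours in the genome stood at opposite ends of the range.

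Cds1 (ENSMUSG00000029330, chromosome 5, 101765130 to 101823858), which makes CDP-diacylglycerol from phosphatidate, was at 71.5, 69.4 and 61.9 FPKM in controls and 45.2, 50.1 and 47.6 FPKM in knockout-labelled libraries. The groups did not overlap, and the mean fell by 29.5% (log2 -0.49 ± 0.08, limma adjusted p = 0.00774). Its paralog Cds2 had means of 7.54 ± 1.11 FPKM in controls and 7.87 ± 0.0929 FPKM in knockout-labelled libraries (SD, n = 3 per group), a difference of 0.06 ± 0.10 that did not pass. Lpin2 (ENSMUSG00000024052, chromosome 17, 71182560 to 71249817) had 7.41, 7.36 and 7.38 FPKM in controls and 9.27, 9.03 and 9.06 FPKM in knockout-labelled libraries. Libraries of a group were nearly equal, and Lpin2 rose by 0.27 ± 0.06 (limma adjusted p = 0.0169). Lpin3 (ENSMUSG00000027412, chromosome 2, 160880670 to 160906002) went from 16.1, 15.1 and 13.2 FPKM to 11.1, 12.4 and 11.5 FPKM and fell by 0.31 ± 0.09 on the log2 scale (limma adjusted p = 0.0427). Lpin1, the lipin best known from fat and muscle, was at 2.62 ± 0.560 and 2.56 ± 0.197 FPKM, with control 264 the lowest and control 262 the highest of all 6 libraries.

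Calls in this step depended on single libraries. That of Dgat2 was lost without control 261 or 262 and without 263 or 266 (limma adjusted p = 0.0685, 0.0590, 0.0713 and 0.0608), with a difference of -0.51 to -0.37 over the 6 omissions, and under quantile scaling (log2 -0.39, adjusted p = 0.0609). It was called in 12 of 19 alternatives, and was lost also without a filter (limma adjusted p = 0.137) and with a sex term (0.0549). Lpin2 lost its call without control 261 and without 263, 265 or 266 (0.0550, 0.0742, 0.0544 and 0.0672) and after the length and GC adjustment (log2 0.18, adjusted p = 0.131). Lpin3, the weakest, was called in 8 of 19 alternatives, was lost under median, trimmed mean and quantile scaling (0.0716, 0.0872 and 0.0646) and passed only without control 264 among the libraries left out (0.0137), with 0.119 and 0.101 without controls 261 and 262 and 0.136, 0.0710 and 0.127 without 263, 265 and 266. Cds1 was called in 18 of 19, all but the fit without a filter (0.0539).

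Head-group synthesis had 2 lower and 0 higher among 11 tested genes, 18.2% lower beside 15.6% of all tested genes, and a median of -0.10 beside -0.06, so it stood near the background, and the 12 genes of the step summed to 169 to 184 FPKM in controls and 164 to 166 FPKM in knockout-labelled libraries. Both genes that fell can serve phosphatidylcholine synthesis, and choline use was not compared with ethanolamine use. Chkb (ENSMUSG00000022617, chromosome 15, 89426360 to 89429908), a choline kinase, was at 17.1, 17.9 and 15.5 FPKM in controls and 13.2, 10.7 and 12.1 FPKM in knockout-labelled libraries. The groups did not overlap, and it fell by 0.46 ± 0.09 on the log2 scale (limma adjusted p = 0.0168). Pcyt1a (ENSMUSG00000005615, chromosome 16, 32430921 to 32475070), the CTP transferase that limits the rate of phosphatidylcholine synthesis, went from 17.4, 18.5 and 17.9 FPKM to 13.4, 14.8 and 15.4 FPKM. Its difference was -0.29 ± 0.07 (limma adjusted p = 0.0289).

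The other tested kinases and CTP transferases of the step did not pass. Pcyt2, the CTP transferase for ethanolamine, was at 24.0 ± 1.82 FPKM in controls and 26.3 ± 1.13 FPKM in knockout-labelled libraries (0.13 ± 0.07), and Etnk1, an ethanolamine kinase, differed by 0.07 ± 0.06. Chka, the other choline kinase, stood at 5.61 ± 0.528 and 6.05 ± 0.116 FPKM (0.10 ± 0.08, SD of each mean over n = 3). Transferases of the last step did not pass either, with Chpt1 at -0.21 ± 0.13 and Cept1, which uses both choline and ethanolamine, at -0.10 ± 0.09. Genes of phosphatidylserine and its decarboxylation were close to level, with Ptdss1 at -0.06 ± 0.06, Ptdss2 at -0.14 ± 0.11 and Pisd at 0.06 ± 0.07. Pemt, which methylates phosphatidylethanolamine and is known mainly from liver, was low at 1.77 to 2.94 FPKM in all libraries (-0.17 ± 0.15), and Pcyt1b was listed at no more than 0.286 FPKM. The strand setting of the counting was not given in those sources, and Cept1 and Ptdss1 overlap expressed genes on the opposite strand, Cept1 with Dram2 at up to 20.3 FPKM and Dennd2d at up to 11.3 FPKM and Ptdss1 with Mterf3 at up to 17.7 FPKM, so their values are less certain. Without control 261 the calls of Chkb and Pcyt1a were lost (limma adjusted p = 0.0557 and 0.0648), as they were without 266 (0.0566 and 0.0563). Both were lost without a filter too (0.112 and 0.105). Pcyt1a was lost also without control 262 and without 263 or 265 (0.0767, 0.0998 and 0.0763) and under median and trimmed mean scaling (0.0530 and 0.0552).

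Lipolysis and droplet coat genes were lower in all 4 cases (median -0.45). Of the 4, 3 passed (75%, beside 15.6% lower among all tested genes). Their sum stood at 117 to 120 FPKM in controls and 82.4 to 86.8 FPKM in knockout-labelled libraries. Plin3 (ENSMUSG00000024197, chromosome 17, 56277476 to 56292873), which coats nascent lipid droplets, was at 38.8, 42.5 and 42.8 FPKM in controls and 29.99, 27.1 and 30.1 FPKM in knockout-labelled libraries. It fell by 29.7% of its mean (log2 -0.49 ± 0.07, limma adjusted p = 0.00627) and passed in all 19 alternatives. Mgll (ENSMUSG00000033174, chromosome 6, 88724412 to 88828360), which splits monoacylglycerol in the last step of lipolysis, went from 36.7, 31.3 and 40.4 FPKM to 26.3, 24.2 and 22.8 FPKM. Controls varied more than knockout-labelled libraries but did not meet them, and the difference was -0.54 ± 0.11 (limma adjusted p = 0.0145).

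Pnpla2 (ENSMUSG00000025509, chromosome 7, 141455198 to 141460743), which encodes ATGL, the first lipase of triglyceride breakdown and a known FoxO target in fat tissue, was at 29.4, 31.4 and 23.9 FPKM in controls and 20.7, 19.9 and 22.3 FPKM in knockout-labelled libraries. Control 264 came close to 266, and Pnpla2 fell by 0.40 ± 0.11 on the log2 scale (limma adjusted p = 0.0388). Lipe, the hormone-sensitive lipase that acts on diacylglycerol, was at 11.9, 14.8 and 10.7 FPKM against 9.78, 11.1 and 8.21 FPKM. Its groups overlapped and it did not pass (-0.33 ± 0.14, limma adjusted p = 0.146). The call of Pnpla2 held in 8 of 19 alternatives, and not without a filter (limma adjusted p = 0.220) or with a sex term (0.0760). It was lost without controls 261 or 262 (adjusted p = 0.109 and 0.0895) and without 263, 265 or 266 (0.112, 0.116 and 0.0765), under median, trimmed mean and quantile scaling (0.0608, 0.0717 and 0.0617) and after the length and GC adjustment (0.0528). That of Mgll was lost without 265 or 266 (limma adjusted p = 0.0505 and 0.0561) and without a filter (0.112).

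Within groups of paralogous or functionally related enzymes, the share of summed FPKM held by each gene was compared between the control and knockout-labelled libraries. In 12 of 22 shares the groups did not overlap. In level, 29.2% of all tested genes lay lower and 16.6% higher without overlap. Shares of a family depend on each other, so 1 shift can count more than once. No share could pass 0.05 with 3 libraries per group. Such shares use each library as its own denominator, so a single scaling factor per library leaves them unchanged. They were not adjusted for length or GC. Exonic length is 12233 bases for Lpin2 and 3694 for Lpin3, and 12024 for Chka and 3061 for Chkb. It is 9125 for Cds2 and 3939 for Cds1, and 7412 for Pcyt1a and 4346 for Pcyt2. The longer gene gained share in the lipin, choline kinase and CDS pairs, while Pcyt1a and Agpat5 (10783 bases) lost share. The part of length in these shares was not tested. In the GPAT family Gpam held 42.1%, 43.3% and 37.8% in the controls, against 30.5%, 31.2% and 32.9% in the knockout-labelled libraries. Gpat4 held 49.2% ± 2.38 in controls and 59.9% ± 1.16 in knockout-labelled libraries (SD, n = 3 per group). The leading GPAT was thus Gpat4 in both groups, by a wider margin under the knockout label. Among lipins, Lpin3 went from 61.2%, 59.2% and 58.5% to 48.0%, 52.1% and 49.8%, and Lpin2 from 29.9% ± 2.45 to 39.1% ± 1.09. Chkb held 75.0% ± 0.392 of choline kinase FPKM in controls and 66.4% ± 2.64 in knockout-labelled libraries, and Cds1 held 90.0% ± 0.716 and 85.8% ± 0.532 of the CDS pair.

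Pcyt1a went from 42.6% ± 2.61 to 35.4% ± 2.50 of the choline and ethanolamine CTP transferases, while Pcyt2 went from 56.8% ± 2.64 to 64.1% ± 2.54. In the AGPAT family Agpat5 went from 32.0% ± 1.23 to 26.4% ± 2.17 and Agpat2 from 4.07% ± 0.585 to 6.68% ± 0.602, while Agpat3, although it fell in level, held 32.9% ± 1.71 and 31.9% ± 1.41. The shares of Dgat2 (95.7% ± 0.732 and 95.0% ± 0.587) and of Pnpla2, Lipe and Mgll among the 3 lipases, which act on successive acylglycerols, overlapped between groups. Each share was compared by a two-sided exact permutation test, whose smallest p with 3 against 3 libraries is 0.1. Of 22 shares 12 reached 0.1, which is 0.183 after Benjamini-Hochberg adjustment over the 22, and shares of a family are not independent of each other.

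**Figure D3:**
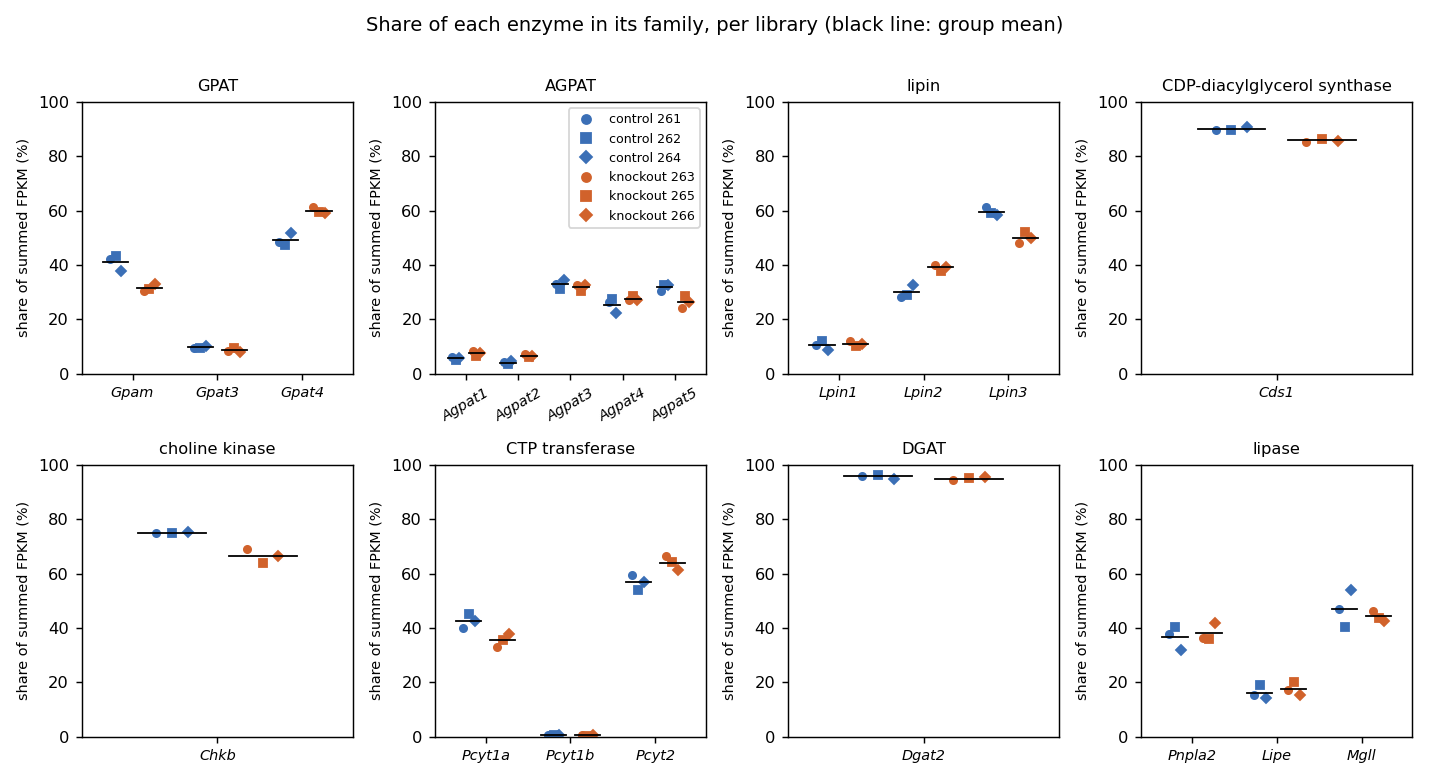
Share of summed FPKM held by each enzyme of a group, in percent, per library. Blue points are controls, orange points knockout-labelled libraries and black lines group means, and only the larger gene is drawn for families of 2. Gpam, Lpin3, Cds1, Chkb, Pcyt1a and Agpat5 lie lower in every orange library, and the shares of Dgat2 and the lipases overlap.

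Genes next to these steps in the pathway form a list of 47, of which 40 were tested. Of the tested genes 16 fell (40%) and 4 rose (10%), beside 15.6% and 7.91% of all tested genes. Their median was -0.14. Leaving out 263 or 266 cut the lower calls to 8 each, and leaving out 266 cut the higher calls to 2. In acyl chain remodelling, which exchanges the chains of finished phospholipids, 2 of 9 fell and 2 rose. That is 22.2% each, beside 15.6% lower and 7.91% higher among all tested genes. Mboat1, a lysophospholipid acyltransferase, had the largest rise of the list, from 13.4, 10.99 and 10.6 FPKM to 24.1, 28.4 and 25.9 FPKM (1.10 ± 0.10, limma adjusted p = 0.00221), and Lpgat1 (0.38 ± 0.08), an acyltransferase of the endoplasmic reticulum, rose too. Lpcat2 (-0.69 ± 0.10), a lysophosphatidylcholine acyltransferase, fell, as did Lpcat3 (-0.30 ± 0.07), named after its value was seen. Mboat1 passed in all 19 alternatives, Lpcat2 in 18 of 19 and Lpgat1 in 15.

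Long-chain acyl-CoA synthetases activate fatty acids for the reactions above that add acyl chains. Of 4 tested, 3 fell (75%, beside 15.6% of all tested genes) and 0 rose. Acsl4 (-0.68 ± 0.08), which prefers arachidonate, went from 8.06, 9.15 and 9.54 FPKM to 5.08, 5.12 and 5.27 FPKM, and Acsl1 (-0.55 ± 0.10) and Acsl5 (-0.33 ± 0.07) fell as well. Among genes of glycerol phosphate supply and lipid phosphatases 3 of 7 fell (42.9%) and 1 rose (14.3%, beside 7.91% of all tested genes). Gk, glycerol kinase, went from 2.69, 2.16 and 3.04 FPKM to 6.16, 5.52 and 5.50 FPKM and rose by 0.89 ± 0.11 (limma adjusted p = 0.00385). Gpd1, named after its value was seen, makes glycerol phosphate from a glycolytic intermediate and went the other way, from 4.29, 2.84 and 5.27 FPKM to 2.04, 1.68 and 1.36 FPKM (-0.91 ± 0.19, limma adjusted p = 0.0189). The phosphatases Plpp2 (-0.41 ± 0.05) and Plpp3 (-0.41 ± 0.06) fell together. Gk, Acsl4, Plpp2 and Plpp3 passed in all 19 alternatives, Acsl1 in 17 and Acsl5 in 14. The call of Acsl1 was lost without 263 (0.0503), that of Gpd1 without control 261 and without 265 or 266 (0.0599, 0.0576 and 0.0636), and that of Acsl5 without control 261 and without 263 or 266 (0.0678, 0.0846 and 0.0786). Lpgat1 lost its call without 263, 265 or 266 (0.0649, 0.0591 and 0.0511), and Lpcat3 without control 261 and without 263 or 266 (0.0700, 0.0707 and 0.0846).

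Droplet proteins and lipase regulators fell in 5 of 10 tested cases (50%) and rose in 1 (10%), beside 15.6% and 7.91% of all tested genes. Bscl2 encodes seipin, which organises droplet formation, and fell from 52.0, 53.6 and 59.0 FPKM to 31.5, 35.3 and 32.4 FPKM (-0.71 ± 0.08, limma adjusted p = 0.00291). Cidea (-0.63 ± 0.11), a droplet fusion protein, and Plin2 (-0.61 ± 0.15), a droplet coat protein, fell as well. Abhd5, named after its value was seen, is the activator of ATGL and a known gene of ichthyosis with lipid storage, and fell by 0.31 ± 0.08 on the log2 scale from 73.7 ± 7.02 to 59.2 ± 2.06 FPKM. Pnpla3 (-0.34 ± 0.10), a lipase-like droplet protein, fell and Abhd6 (0.31 ± 0.08), a monoacylglycerol hydrolase, rose, both named after their values were seen. Awat2 (-0.84 ± 0.13) and Awat1 (-0.71 ± 0.15), wax ester enzymes of the DGAT2 family, were the 2 of 3 genes of that group that fell (66.7%). In the inositol lipid and cardiolipin branch 1 of 6 fell (16.7%, near the 15.6% of all tested genes), Taz (-0.37 ± 0.10), the cardiolipin acyltransferase tafazzin. Selenoi, an ethanolamine phosphotransferase named after its value was seen, was unequal among knockout-labelled libraries, at 92.4, 45.7 and 55.8 FPKM against 35.9 to 40.8 FPKM in controls, and did not pass (0.68 ± 0.24, limma adjusted p = 0.0824).

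Bscl2 passed in all 19 alternatives, Cidea and Awat2 in 18, and the other named genes of these groups lost calls more often. Plin2 was lost without control 261 and without 263, 265 or 266 (0.0795, 0.0670, 0.0612 and 0.0905), and Awat1 without control 262 and without 263 or 266 (0.0524, 0.0684 and 0.0650). Abhd5 was lost without control 262 or 264 (0.0972 and 0.0536) and without 263, 265 or 266 (0.101, 0.1002 and 0.138), and Taz without the same controls (0.0894 and 0.0568) and the same knockout-labelled libraries (0.134, 0.0690 and 0.116). Median, trimmed mean and quantile scaling ended the calls of Taz (0.0613, 0.0530 and 0.0527) and Pnpla3 (0.0675, 0.0715 and 0.161), and the first 2 scalings that of Abhd5 (0.0629 and 0.0529). The length and GC adjustment ended the calls of Awat1 (log2 -0.59, limma adjusted p = 0.0553) and Pnpla3 (-0.27, 0.122). Pnpla3 kept its call without control 264 alone, among the libraries left out, with 0.126, 0.117, 0.149, 0.0935 and 0.107 without 261, 262, 263, 265 and 266. Abhd6 was lost without control 261, 262 or 264 (0.0797, 0.0635 and 0.0564) and without 265 or 266 (0.109 and 0.112).

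**Figure D4:**
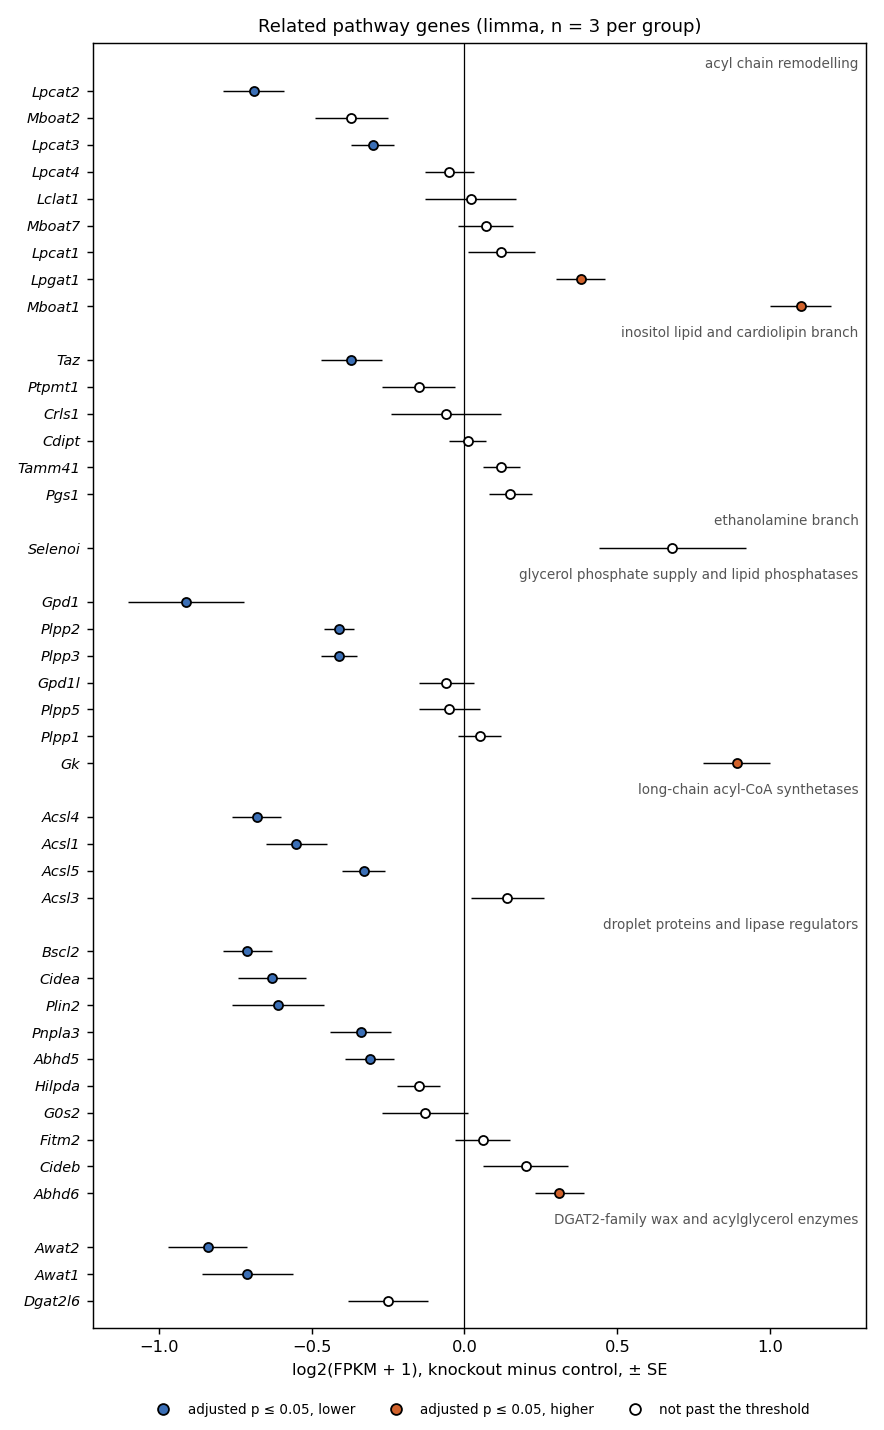
Difference of the 40 tested genes of neighbouring reactions, knockout-labelled minus control on the log2(FPKM + 1) scale, with bars of 1 SE from limma. Blue and orange points passed an adjusted p of 0.05. Mboat1 at 1.10 and Gk at 0.89 lie farthest to the right, and Gpd1 at -0.91 and Awat2 at -0.84 farthest to the left.

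Markers of other cells of the skin moved in the same libraries. Each list is short, and among all tested genes 15.6% fell and 7.91% rose. Of 6 keratinocyte markers the basal keratins Krt5 (0.57 ± 0.10) and Krt14 (2352 to 2897 FPKM in controls and 5120 to 6908 FPKM in knockout-labelled libraries) rose, and 0 passed as lower. Krt1 (0.00 ± 0.10), Krt10 (-0.18 ± 0.10), Lor (-0.34 ± 0.24) and Flg (-0.30 ± 0.32) did not pass. For Krt10 every knockout-labelled library lay below every control. Sebocyte markers fell in 5 of 6 cases and summed to 84.9 to 95.5 FPKM in controls and 38.3 to 45.3 FPKM in knockout-labelled libraries, and all 5 hair shaft markers fell, from 720 to 891 FPKM in sum to 387 to 465 FPKM. Melanocyte markers fell in 4 of 5 cases (351 to 437 FPKM against 264 to 296 FPKM in sum), and leukocyte markers in 3 of 4 tested (24.1 to 33.2 FPKM against 17.3 to 18.5 FPKM), with Cd207 at no more than 0.116 FPKM. Adipocytes use many of the same lipid genes. Of the 7 adipocyte markers 3 were tested and 0 passed, their sum ran from 9.33 to 23.3 FPKM in controls and from 7.11 to 14.8 FPKM in knockout-labelled libraries with control 264 the highest, and Lep was listed at 0 in 5 of 6 libraries. Dermal fibroblast markers rose in 2 of 4 tested cases (114 to 142 FPKM against 124 to 159 FPKM in sum), endothelial markers summed to no more than 0.634 FPKM, and of 3 skeletal muscle markers 2 were listed and summed to no more than 11.7 FPKM, in 266. Awat2 belongs to both the sebocyte list and the related genes, and Plin1 and Cidec to both the adipocyte list and the related genes. The part of these cells in the differences above was not tested.

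**Figure D5:**
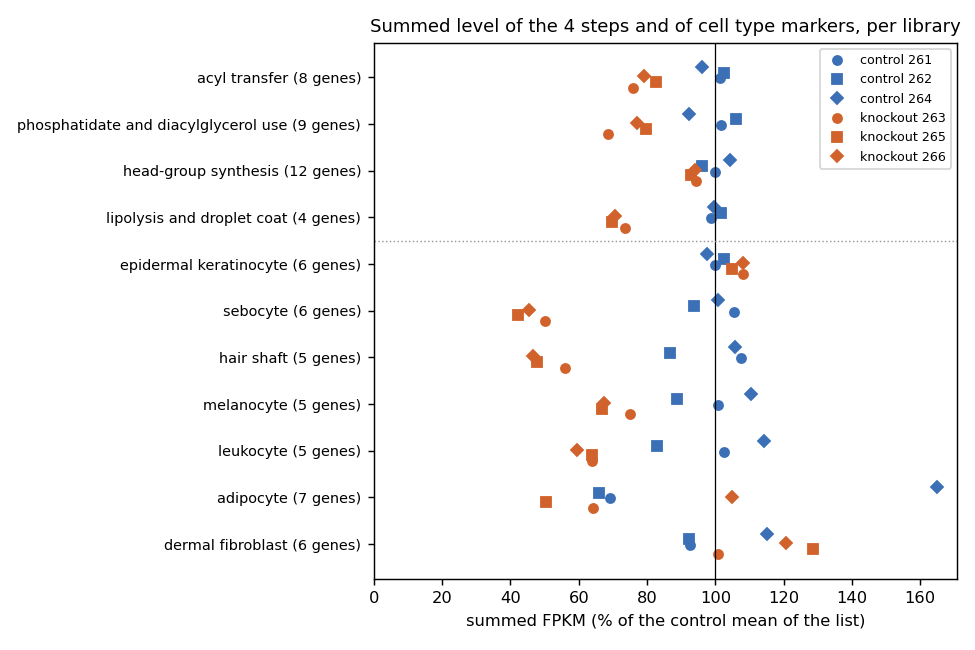
Summed FPKM of the 4 steps and of 7 marker lists in each library, as a percentage of the control mean of that list. Blue points are controls and orange points knockout-labelled libraries. Under the knockout label lipolysis genes stand at 69.7% to 73.4%, sebocyte markers at 42.3% to 50.1% and hair shaft markers at 46.6% to 56.0%.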

How the data were processed

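RNA was extracted from separated epidermis with a QIAGEN RNeasy Mini column, per the labels' protocols, and libraries were grouped by their titles, which match the genotype label. CASAVA and Cufflinks were used with GRCm38, per the submitters' processing notes, and aligner, annotation, strand and RNA selection were not given there. The authors deposited 1 table of FPKM with a column per library, per the file headers. FPKM divides by library total and length, so a change in abundant genes moves all others.

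The table held 49452 rows, 22449 at 0 in all libraries. GENCODE M21 matched 49195 identifiers and left 257 unmatched, and of rows that share a symbol the one with the higher mean was used (75 left out). A gene was tested if its mean reached 1 FPKM in 1 group or both, as log2(FPKM + 1), which understates changes of low genes, with limma's linear model and an intensity trend (prior degrees of freedom 2.80), with Benjamini-Hochberg adjustment over all 13500 genes and a threshold of 0.05. The fit was checked on generated data with known differences of at least 1 on the log2 scale. No tested member reached that size, so the check does not cover differences as small as those reported. The members and lists were chosen with earlier results of these data known. Named genes were all 33 members and, of each related list, up to 3 called genes with the smallest p, and others are said to be named after their values were seen. Protein motifs planned for the description were not analysed here. Results were recomputed with pseudocounts of 0.1 and 5, without a filter or with means of 5 FPKM or more, after median, trimmed mean or quantile scaling, with a length and GC adjustment, no trend, a robust variance, array weights, a sex term (from Xist and Ddx3y), a threshold of 0.10 and each library left out. R 4.3.3, limma 3.58.1, Python 3.11.15, pandas 2.3.3 and matplotlib 3.10.9 were used.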

Additional observations from a re-analysis of the deposited data

How the results depend on the processing

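The 11 falls and 1 rise kept their direction in all 19 alternatives, but many of these could not have changed it. The filter, trend, robust variance and threshold settings leave the differences themselves unchanged. The groups did not overlap for any of these genes, so leaving out 1 library could not reverse a direction either. No paired analysis was possible because the labels name no litter or pair. Among the 33 genes, lower calls went from 11 to 2 without a filter on low values, where calls over all genes fell to 920, and to 4 to 12 with 1 library left out, and the cause was not tested. Higher calls went from 1 to 3 under median, trimmed mean or quantile scaling, array weights, a minimum of 5 FPKM or a threshold of 0.10, to 2 with a pseudocount of 0.1 or a robust variance, to 0 with a sex term, and to 0 to 3 with 1 library left out. The sex term also ended the calls of Dgat2, Lpin2, Lpin3, Pcyt1a and Pnpla2 and added Lipe. Among related genes, 16 lower calls became 4 without a filter, 10 with a sex term and 8 to 14 with 1 library left out, and 4 higher calls became 2 without a filter and 2 to 3 with 1 library left out. Over all genes, calls numbered 3169 as reported, 1852 with a sex term, 6272 with array weights and 1462 to 3784 with 1 library left out. The share of higher calls was 33.7% as deposited, 44.8% after median scaling, 44.2% after trimmed mean scaling and 47.9% after quantile scaling, and no scaling moved the median of all genes by over 0.1. Some family shares whose groups overlapped changed sign when 1 library was left out. Over the 6 omissions the difference, in percentage points, ran from -0.363 to 1.23 for Lpin1 (negative without control 264 and, at -0.0397, without 263), from -0.209 to 2.50 for Ptdss1 (negative without control 264), from -0.990 to 3.33 for Pnpla2 (negative without control 264 and, at -0.445, without 266) and from -6.21 to 0.551 for Mgll (positive without control 264). Depth in reads is unknown, so no counting error was set for Mogat1, Mogat2 or Pcyt1b.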
